A study of Mus musculus with 10 samples.

Results

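The genes described are 9 transcription factor genes known for dividing the embryonic cerebral cortex into areas: *Emx1*, *Emx2*, *Pax6*, *Lhx2*, *Nr2f1*, *Nr2f2*, *Nr2e1*, *Sp8* and *Dmrta2*. They were chosen by symbol, and all 9 were found among the 14300 genes of the deposited count table. The libraries came from C57BL6/J mouse embryos that carried *Grem1creERT*, whose Cre needs tamoxifen and is under the control of *Grem1* regulatory sequences, and *Rosa26LSLTdtomato*, a reporter that turns cells and their progeny red once Cre has acted. Tamoxifen was given to the pregnant dam and cells were taken 24 hours later, in mid-gestation, and sorted into live TdTomato+ and TdTomato- cells, with a library of each population from each of 5 mice numbered 2 to 6. Both populations therefore came from embryos with the same alleles and the same tamoxifen and were separated by reporter fluorescence. The comparison asks how far cells that had switched on *Grem1*, a BMP antagonist, carried the patterning factors of the cortex. The sample descriptions name sorted brain cells, whereas the methods of the study name the dissected dorsal telencephalon with the meninges removed, and reporter-negative cells are whatever that dissection held.

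In the telencephalon, cortical progenitors read signals from an anterior FGF source, from the medially placed cortical hem, which secretes WNT and BMP proteins, and from the lateral antihem. They convert them into opposed gradients of transcription factors. *Emx2* and *Nr2f1* are known for high caudal expression, and *Pax6* and *Sp8* for high rostral expression. *Lhx2* holds back hem fate and maintains cortical identity, *Dmrta2* is needed for the hem and for cortical patterning, and *Nr2e1* (Tlx) keeps neural stem cells dividing and sharpens the border between pallium and subpallium. *Emx1* marks the dorsal telencephalic lineage, and it and *Nr2f1* are known to be expressed in postmitotic cortical neurons as well as in their progenitors. *Nr2f2* (COUP-TFII) is best known for the caudal ganglionic eminence and the interneurons born there, and for venous endothelium.

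All 9 patterning genes were lower in TdTomato+ than in TdTomato- cells, in all 5 mice, but to very different degrees. *Sp8*, *Nr2e1*, *Pax6*, *Dmrta2* and *Emx2* were 14.7 to 45.3 times lower, *Lhx2* was 6.35 times lower, and *Nr2f2*, *Nr2f1* and *Emx1* were 1.78 to 2.94 times lower. In edgeR's quasi-likelihood test, blocked by mouse, 9 of 9 genes reached an adjusted p of at most 0.05, lower in TdTomato+ cells in each case. Of all 14300 genes, 39.4% did so in that direction, 37.9% in the other and 77.3% in either. DEGs, for which the log2 fold change must also be 2 or more in size, were 6 of the 9, where 9.74% of all genes were DEGs lower in TdTomato+ cells, 3.2% were DEGs higher there and 12.9% were DEGs in either direction. The median log2 fold change was -3.88 over the 9 genes and -0.01 over all genes. The CPM ranges of the populations did not overlap for 9 of 9 genes, as for 32.4% of all genes in this direction. CPM are counts relative to the TMM-scaled library size. In sorted bulk RNA, fewer cells of a type and less RNA per cell cannot be told apart.

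RefSeq promoter windows of both paralogue pairs are shown because the balance within each pair was compared between populations. Each window, taken from RefSeq on GRCm38.p6, runs 5′ to 3′ on the strand of the gene, mostly upstream of a RefSeq start and reaching a little past it. It is the RefSeq window of its gene nearest to the gene start in GENCODE. Capitals mark GC boxes (GGGCGG) and the homeodomain core TAATTA, searched on both strands with overlapping matches counted. The *Emx1* window is chr6:85187681-85187980 (plus strand), that of *Emx2* is chr19:59458440-59458739 (plus strand), that of *Nr2f1* is chr13:78198824-78199123 (minus strand) and that of *Nr2f2* is chr7:70366697-70366996 (minus strand).
Emx1: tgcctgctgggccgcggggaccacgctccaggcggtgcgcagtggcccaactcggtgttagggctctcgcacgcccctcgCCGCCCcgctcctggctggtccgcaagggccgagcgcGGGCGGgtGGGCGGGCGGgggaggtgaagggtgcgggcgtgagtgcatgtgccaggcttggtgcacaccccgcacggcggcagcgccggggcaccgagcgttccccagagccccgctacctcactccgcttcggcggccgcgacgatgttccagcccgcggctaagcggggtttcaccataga
Emx2: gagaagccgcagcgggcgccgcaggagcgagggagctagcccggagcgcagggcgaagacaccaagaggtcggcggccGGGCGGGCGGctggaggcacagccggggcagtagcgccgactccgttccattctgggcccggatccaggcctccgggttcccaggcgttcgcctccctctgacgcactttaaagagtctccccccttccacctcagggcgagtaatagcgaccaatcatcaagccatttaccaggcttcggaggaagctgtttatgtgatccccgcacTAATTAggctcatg
Nr2f1: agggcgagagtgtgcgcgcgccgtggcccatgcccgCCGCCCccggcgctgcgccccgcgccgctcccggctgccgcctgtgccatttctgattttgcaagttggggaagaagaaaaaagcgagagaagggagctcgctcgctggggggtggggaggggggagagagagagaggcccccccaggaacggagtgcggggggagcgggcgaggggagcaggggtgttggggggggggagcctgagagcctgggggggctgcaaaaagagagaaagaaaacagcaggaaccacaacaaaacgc
Nr2f2: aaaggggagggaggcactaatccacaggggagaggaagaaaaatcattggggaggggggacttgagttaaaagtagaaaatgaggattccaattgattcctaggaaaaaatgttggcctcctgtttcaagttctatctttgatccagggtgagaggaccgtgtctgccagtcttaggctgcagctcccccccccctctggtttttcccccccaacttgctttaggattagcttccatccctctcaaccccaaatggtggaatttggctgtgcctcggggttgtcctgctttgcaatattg
The windows of *Emx1*, *Emx2* and *Nr2f1* were rich in CpG, with 37, 26 and 23 CpG dinucleotides, against 2 for *Nr2f2* and a median of 7 over 32851 RefSeq windows of the same length. A GC box was found 4 times in *Emx1*, 2 times in *Emx2* and once in *Nr2f1*, and in 35.7% of all windows. Over the nearest windows of all 9 genes, 4 held a GC box (*Lhx2* was the other), and only that of *Emx2* held TAATTA, which 5.29% of all windows hold. None of the 9 held the nuclear receptor motif AGGTCA, found in 16.3% of all windows. The GENCODE start lay up to 884 bases, for *Nr2f1*, from the RefSeq start used. A match of letters is a description and not a binding site.

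*Sp8* encodes a zinc finger factor that acts downstream of anterior FGF signals. The gene occupies chr12:118846329-118852576 (GRCm38, plus strand). It was at 31.1, 36.1, 31.2, 30.2 and 26.5 CPM in the TdTomato- libraries of mice 2 to 6, and at 0.272, 0.737, 0.662, 1.04 and 0.678 CPM in their TdTomato+ libraries. The TdTomato+ values rest on 6 to 24 counts per library and the TdTomato- values on 760 to 1044, and the lowest value was that of mouse 2. The fitted log2 fold change was -5.50 (s.e. 0.18, edgeR adjusted p = 9.5e-09), the 51st lowest of all genes. TdTomato+ cells held 2.21±0.934% of the level of TdTomato- cells (mean±s.d., n = 5 mice).

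*Nr2e1*, which encodes an orphan nuclear receptor, occupies chr10:42561963-42583632 (minus strand). It was at 119, 141, 116, 124 and 118 CPM in TdTomato- cells of mice 2 to 6 and at 2.22, 5.33, 3.36, 4.30 and 4.75 CPM in TdTomato+ cells. Again mouse 2 was lowest among the TdTomato+ libraries, and the populations lay far apart. The fitted log2 fold change was -4.97 (s.e. 0.13, edgeR adjusted p = 4.5e-09), with 3.21±0.864% of the TdTomato- level left.

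*Pax6*, the paired-box factor of radial glia, occupies chr2:105668900-105697364 (plus strand). It was at 113, 124, 109, 113 and 110 CPM in TdTomato- and at 3.17, 4.51, 4.02, 5.96 and 5.69 CPM in TdTomato+ cells of mice 2 to 6. Mice 5 and 6 were the highest among the TdTomato+ libraries, far under the TdTomato- range. Its within-mouse difference was -4.23 to -5.12 on the log2 CPM scale (edgeR -4.62, s.e. 0.13, adjusted p = 4.5e-09), and 4.11±1.07% of the TdTomato- level remained. Counts were 70, 104, 91, 137 and 126 in the TdTomato+ libraries of mice 2 to 6, from 2708 to 3598 in TdTomato- libraries. The gene with the highest TdTomato- agreement between mice among the 9 was also *Pax6*, with a coefficient of variation of 5.45% there and 24.9% in TdTomato+ cells.

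*Dmrta2* (chr4:109978053-109983687, plus strand), a doublesex-related zinc finger factor, had the least variable difference of the 9. It was at 45.5, 60.9, 53.1, 54.4 and 57.4 CPM in TdTomato- and at 2.49, 3.34, 3.22, 2.87 and 3.39 CPM in TdTomato+ cells of mice 2 to 6. The TdTomato+ level was 5.28 to 6.07% of the TdTomato- level in every mouse. Its fitted log2 fold change of -4.15 (s.e. 0.06, edgeR adjusted p = 1.1e-09) ranked 3rd of all genes by p.

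**Figure D1:**
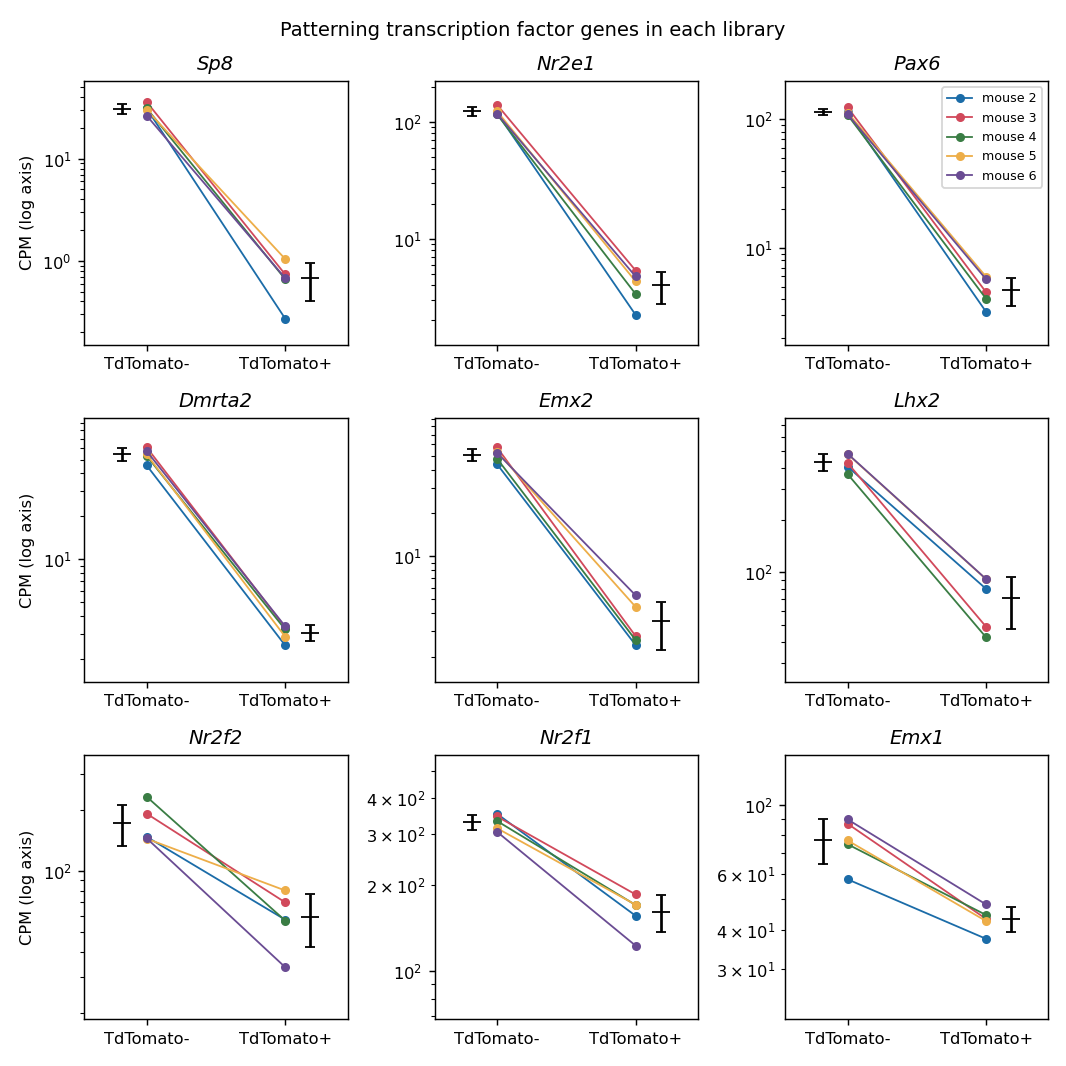
CPM of the 9 patterning genes in the 10 libraries, each panel with its own log axis, lines joining the TdTomato- and TdTomato+ library of a mouse, and black marks giving the mean and s.d. over 5 mice. Every line falls, from 31.0 to 0.679 CPM on average for *Sp8*, in the first panel, and from 77.4 to 43.2 CPM for *Emx1*, in the last.

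*Emx1* and *Emx2* encode closely related homeodomain proteins of the dorsal telencephalon. *Emx2* (chr19:59458372-59465357, plus strand) was at 43.7, 57.1, 47.7, 53.5 and 52.4 CPM in TdTomato- and at 2.403, 2.78, 2.60, 4.43 and 5.33 CPM in TdTomato+ cells of mice 2 to 6. The TdTomato+ values of mice 5 and 6 were above those of the other mice, and all 5 were far below the TdTomato- range. The fitted log2 fold change was -3.88 (s.e. 0.15, edgeR adjusted p = 2.6e-08).

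*Emx1* (chr6:85187438-85204462, plus strand) changed least of the 9. It was at 57.9, 87.1, 74.9, 77.0 and 89.9 CPM in TdTomato- and at 37.4, 43.3, 44.5, 42.6 and 48.1 CPM in TdTomato+ cells of mice 2 to 6. The library of mouse 2 was the lowest in both populations. The fitted log2 fold change was -0.83 (s.e. 0.06, edgeR adjusted p = 1.6e-06), and TdTomato+ cells held 56.5±5.72% of the TdTomato- level.

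*Emx1* took 60.1±2.30% of the counts of the pair in TdTomato- libraries and 92.6±2.12% in TdTomato+ libraries, and the ranges did not overlap. The log2 ratio of *Emx1* to *Emx2* counts was higher in the TdTomato+ library by 3.55, 3.35, 3.45, 2.74 and 2.396 in mice 2 to 6, a mean of 3.10±0.504 (s.d.), or 8.56-fold. All 5 mice had this direction, and the exact two-sided sign-flip permutation p was 0.063, the smallest that 5 pairs allow and one that cannot pass 0.05. Library size and its scaling cancel in this ratio. Without the pairing, an exact permutation of the 10 libraries gave p = 0.00794, also the smallest possible.

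*Nr2f1* and *Nr2f2* encode the orphan nuclear receptors COUP-TFI and COUP-TFII. *Nr2f1* (chr13:78188973-78199757, minus strand) was at 353, 346, 334, 315 and 306 CPM in TdTomato- and at 156, 185, 170.0, 170.3 and 123 CPM in TdTomato+ cells of mice 2 to 6. Mouse 6 was lowest in both populations, which did not overlap. Its fitted log2 fold change was -1.05 (s.e. 0.07, edgeR adjusted p = 7.1e-07).

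*Nr2f2* (chr7:70351944-70366735, minus strand) was at 148, 192, 233, 145 and 145 CPM in TdTomato- and at 57.5, 70.0, 57.0, 80.2 and 33.5 CPM in TdTomato+ cells of mice 2 to 6. Of the 9 genes it had the widest spread among the TdTomato- libraries, with a coefficient of variation of 22.8%. The part of the TdTomato- level left in TdTomato+ cells ran from 23.1% in mouse 6 to 55.5% in mouse 5, and the fitted log2 fold change was -1.56 (s.e. 0.17, edgeR adjusted p = 2.3e-05), nearest to the DEG threshold among the genes outside it.

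*Nr2f1* took 66.0±4.57% of the counts of its pair in TdTomato- and 73.4±3.83% in TdTomato+ libraries. The log2 ratio of *Nr2f1* to *Nr2f2* differed between populations by 0.51±0.445 (s.d.), from -0.04 in mouse 5 to 1.06 in mouse 4. It was higher in TdTomato+ cells in 4 of 5 mice, with an exact two-sided sign-flip permutation p of 0.13, where 5 pairs cannot go below 0.063, so the paired test could not pass 0.05. The p was above that floor because mouse 5 went the other way. An exact permutation that ignores the pairing gave p = 0.0238, which leaves out that both libraries of a number come from one mouse.

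**Figure D2:**
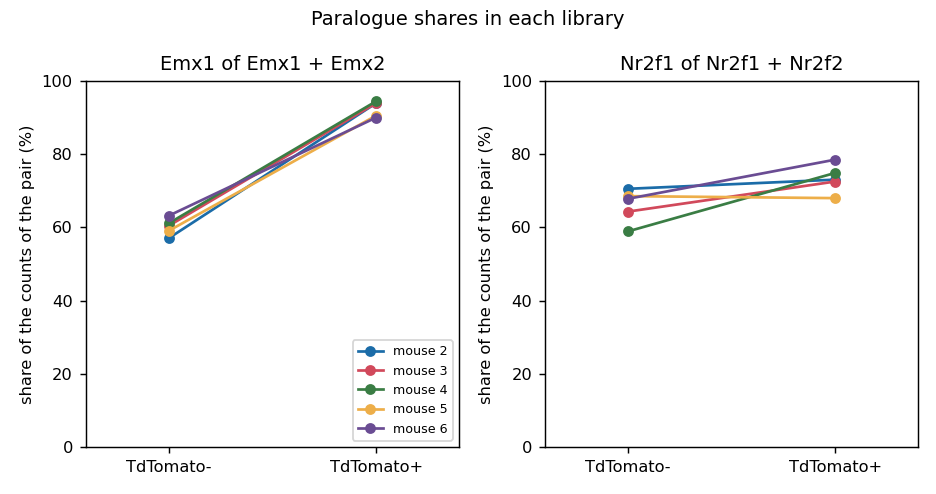
Share of the counts of each paralogue pair taken by *Emx1* (left) and *Nr2f1* (right), in percent from 0 to 100, with a line for each mouse from its TdTomato- to its TdTomato+ library. The *Emx1* share runs from 57.0 to 63.2% in TdTomato- libraries and from 90.0 to 94.5% in the TdTomato+ ones, whereas the *Nr2f1* shares of 58.9 to 70.5% and 68.0 to 78.5% overlap.

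*Lhx2*, a LIM-homeodomain gene at chr2:38339281-38369733 (plus strand), lay between these groups. It was at 406, 426, 367, 479 and 481 CPM in TdTomato- and at 80.3, 48.7, 42.3, 91.3 and 91.5 CPM in TdTomato+ cells of mice 2 to 6. The TdTomato+ values of mice 3 and 4 were well under those of mice 2, 5 and 6, and the populations did not overlap. The fitted log2 fold change was -2.67 (s.e. 0.14, edgeR adjusted p = 1.6e-07), and 16.2±4.30% of the TdTomato- level was left. Of the 6 DEGs, *Lhx2* was nearest to the fold change threshold.

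Another gene overlaps the exons of *Emx2*, *Nr2f2* and *Nr2f1* on the opposite strand, and none overlaps the exons of the other 6 genes. The sample descriptions name a strand-specific kit, but which strand was counted is not given in the sources used here, so reads of these pairs may be shared. *Emx2os* shares 264 bases, or 8.8% of the exonic length of *Emx2*, and fell with it, from 5.49±0.346 to 0.763±0.382 CPM (log2 fold change -2.88, s.e. 0.23, adjusted p = 3.6e-06, edgeR). *B130024G19Rik*, which shares 7.5% of the exonic length of *Nr2f2*, fell from 4.06±1.12 to 1.47±0.476 CPM (-1.47 on the log2 scale, s.e. 0.20, edgeR adjusted p = 1.0e-04). *A830082K12Rik*, antisense to *Nr2f1* over 2.4% of its exonic length, averaged 17.3±0.979 CPM in TdTomato- against 17.5±1.85 CPM in TdTomato+ cells (log2 fold change 0.01, s.e. 0.07, adjusted p = 0.92). Its partner *Nr2f1* fell in the same libraries.

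**Figure D3:**
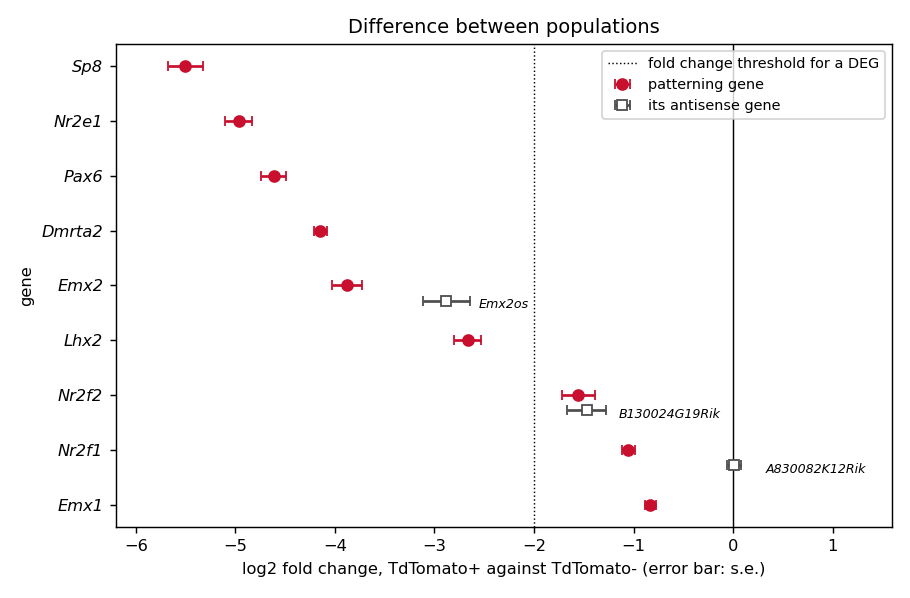
Log2 fold change of TdTomato+ against TdTomato- cells for the 9 patterning genes (filled circles) and 3 antisense genes (open squares), with the s.e. as error bar and a dotted line at the DEG threshold. The circles run from -5.50 for *Sp8* to -0.83 for *Emx1*, and *A830082K12Rik*, antisense to *Nr2f1*, sits at 0.01.

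Levels of different genes were compared per length, as RPKM, the CPM divided by the kilobases of exon in GENCODE. In TdTomato- cells the order was *Lhx2* (98.3±11.1 RPKM), *Nr2f1* (64.9±3.96), *Emx1* (35.4±5.78), *Nr2e1* (33.3±2.66), *Nr2f2* (20.0±4.55), *Dmrta2* (18.6±1.96), *Emx2* (16.9±1.74), *Pax6* (9.74±0.531) and *Sp8* (6.80±0.751). The ranges over 5 libraries overlapped between *Emx1* and *Nr2e1*, between *Nr2f2* and *Dmrta2* and between *Dmrta2* and *Emx2*, so these neighbours were not separated by their spread, although *Dmrta2* was above *Emx2* in 5 of 5 mice. In TdTomato+ cells the order was *Nr2f1* (31.6±4.65 RPKM), *Emx1* (19.8±1.77), *Lhx2* (16.1±5.39), *Nr2f2* (6.92±2.03), *Emx2* (1.17±0.433), *Nr2e1* (1.08±0.330), *Dmrta2* (1.05±0.129), *Pax6* (0.399±0.0993) and *Sp8* (0.149±0.0603). Here *Emx1* overlapped with *Lhx2*, and *Emx2*, *Nr2e1* and *Dmrta2* overlapped in turn. *Nr2e1* was close to *Emx1* in TdTomato- cells, and 1.08 against 19.8 RPKM in TdTomato+ cells. The exonic length of *Pax6* joins 26 annotated transcripts, and levels per length depend on this choice. With the longest transcript as length, TdTomato- levels were 25.7 RPKM for *Pax6*, 40.8 for *Nr2f2*, 37.7 for *Nr2e1*, 103 for *Nr2f1* and 152 for *Lhx2*. *Pax6* then stood 6th in place of 8th, and *Nr2f2* stood above *Nr2e1*. In TdTomato+ cells *Pax6* then had 1.06 RPKM against 1.05 for *Dmrta2*, so the order of those genes is not settled by the ranges given above.

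**Figure D4:**
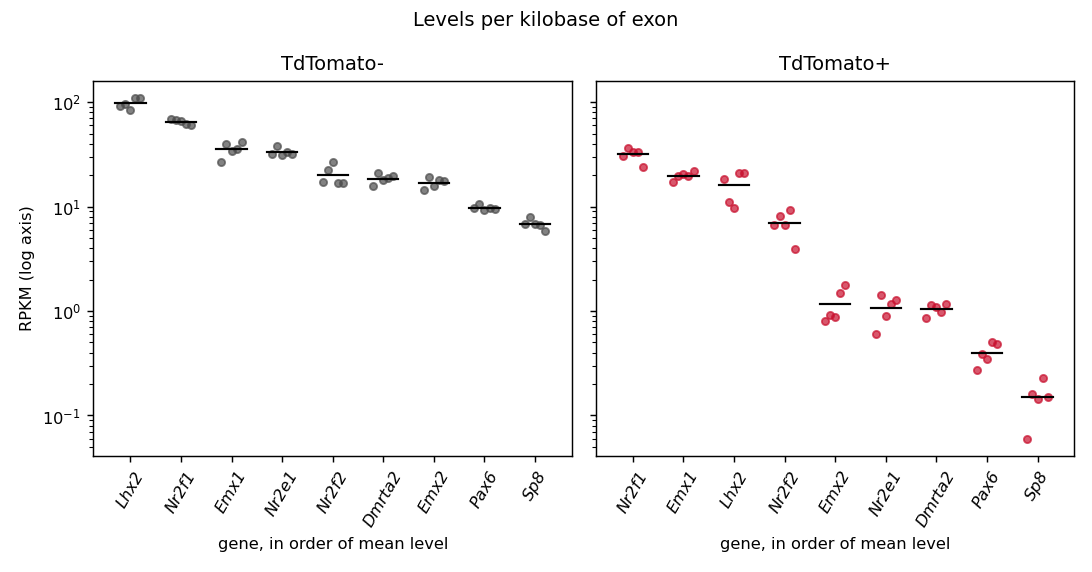
RPKM of the 9 genes on a log axis in TdTomato- (left) and TdTomato+ (right) libraries, in order of mean level, with a point for each of 5 libraries and a line at the mean. *Lhx2* leads on the left at 98.3 RPKM and *Nr2f1* on the right at 31.6 RPKM, where 5 genes lie at 1.17 RPKM or less.

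Marker lists show what the populations held. *Grem1* rose from 6.11 to 63.3 CPM (3.37 on the log2 scale, s.e. 0.07, edgeR adjusted p = 1.8e-09). Radial glial markers fell in 8 of 8 cases, from *Hes5* (-5.29) to *Slc1a3* (-2.19), with a median log2 fold change of -4.10, and their summed level ran over 1490 to 1743 CPM in TdTomato- against 125 to 171 CPM in TdTomato+ libraries. Intermediate progenitor markers fell in 6 of 6, from *Eomes* (-5.07) to *Gadd45g* (-2.54). Glutamatergic neuron markers rose in 7 of 8, up to 2.69 for *Slc17a7*, with *Slc17a6* (-2.54) the exception.

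*Sp8* and *Nr2f2* are also genes of ventrally derived interneurons. GABAergic interneuron markers were lower in 10 of 10, from *Htr3a* (-5.10) to *Adarb2* (-1.002), and summed to 923 to 1176 CPM in TdTomato- against 44.5 to 67.6 CPM in TdTomato+ libraries. Of these, *Htr3a* averaged 0.240 CPM in TdTomato+ cells, under the table's minimum of 0.5 CPM. It was in the table through TdTomato- cells, so its direction was largely set by that minimum. *Nkx2-1*, the factor of the medial ganglionic eminence, averaged 68.7 CPM in TdTomato- against 4.58 CPM in TdTomato+ cells. *Prox1*, found in caudal ganglionic eminence interneurons, fell from 73.7 to 3.07 CPM. Cajal-Retzius markers were lower in 6 of 6, from *Trp73* (-3.65) to *Reln* (-0.81), with summed levels of 214 to 389 CPM in TdTomato- against 127 to 157 CPM in TdTomato+ libraries. Endothelial and pericyte markers, a cell type in which *Nr2f2* is known, were in the table for 4 of 9, with 3 lower, and summed to 10.7 to 17.7 CPM in TdTomato- against 1.67 to 3.95 CPM in TdTomato+ libraries, from *Pdgfrb* (-3.94) to *Pecam1* (-0.62, adjusted p = 0.052 by edgeR). Of the meningeal list 2 of 7 were in the table (*Col1a2*, -3.67, which fell, and *Dcn*, -0.29, which did not pass the test) and of the choroid plexus list 1 of 4 (*Clic6*, -2.03), with sums of at most 5.29 and 3.03 CPM in any library. Microglial markers were lower in 5 of 5 in the table, from *C1qa* (-5.83) to *Tyrobp* (-4.18), and erythroid markers in 5 of 5, from *Hbb-bs* (-5.53) to *Hba-a1* (-2.86), with sums of 11.4 to 55.6 and 74.2 to 258 CPM in TdTomato- against at most 1.63 and 25.7 CPM in TdTomato+ libraries. Of the microglial markers, 4 averaged under 0.5 CPM in TdTomato+ cells and were in the table through TdTomato- cells, as were *Col1a2* and *Clic6*, so the direction of these counts was largely set by the table's minimum. The median log2 fold change was -5.42 for the microglial and -3.80 for the erythroid list. The part of these cell types in the fall of the patterning genes was not tested.

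The same comparison was made for paralogues of the patterning genes and for the signals that set the gradients. Of 8 paralogues in the table, 7 were lower, 2 of them (*Dmrta1* and *Sp5*) under 0.5 CPM in TdTomato+ cells, and 1 higher. *Sp9*, the paralogue of *Sp8* known from ventral progenitors and interneurons, fell most (-5.55 on the log2 scale, s.e. 0.20, edgeR adjusted p = 1.8e-08), from 152 to 3.21 CPM. The log2 fold changes of the others were -4.13 for *Dmrta1*, -3.85 for *Sp5*, -1.99 for *Lhx9*, the relative of *Lhx2*, and -1.77 for *Dmrt3*. The nuclear receptor relatives changed least, with -0.71 for *Nr2f6*, -0.25 for *Nr2c1* and 0.10 for *Nr2c2*.

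Other dorsal telencephalic and areal transcription factors were divided, with 15 lower, 4 higher and 2 not passing the test of 21, and a median log2 fold change of -2.28. *Gli3*, the hedgehog pathway factor that sets dorsal identity, fell most (-4.58, s.e. 0.10, adjusted p = 2.2e-09, edgeR). *Lmo3* (1.59, s.e. 0.08, adjusted p = 1.8e-07) rose most, and *Bcl11a* (0.80) was also among the 4 that rose. *Bhlhe22*, which acts in postmitotic area identity, averaged 116 CPM in TdTomato- against 144 CPM in TdTomato+ cells (log2 fold change 0.23, s.e. 0.20, adjusted p = 0.32).

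Of 13 genes of the cortical hem in the table, 9 were lower and 2 higher, from *Wnt8b* (-4.08) to *Wnt7b* (2.15). Of those 9, 6 averaged under 0.5 CPM in TdTomato+ cells, the minimum for the table, so they were in it through their TdTomato- levels and their direction was largely set by that. *Wnt7b*, with 174 CPM in TdTomato- against 756 CPM in TdTomato+ cells, is also known from deep-layer neurons, and the other that rose was *Rspo3* (2.11). The hem factors *Lmx1a* and *Msx1* averaged 0.996 and 0.681 CPM in TdTomato- cells and fell to 0.220 and 0.0975 CPM, the latter under the floor of 3 counts. Of 14 genes of the anterior FGF source and its targets, 13 were in the table, without *Fgf8*, the defining ligand of that source. Of these, 10 were lower and 3 higher. Among the lower, 2 (*Fgf15* and *Fgf3*) averaged 0.326 and 0.0881 CPM in TdTomato+ cells. Their direction was thus largely set by the minimum of 0.5 CPM. *Fgf15* fell most (-6.04, s.e. 0.17, adjusted p = 5.2e-09, edgeR), *Fgf18* rose most (3.33, s.e. 0.18, adjusted p = 2.3e-07), and the targets and feedback inhibitors induced by FGF signalling were divided. Their log2 fold changes were -2.71 for *Etv4*, -2.03 for *Etv1*, -1.19 for *Spry1* and -0.92 for *Etv5*, against 0.78 for *Spry2* and 2.00 for *Dusp6*. Of 14 genes of the antihem and the border between pallium and subpallium, 9 were lower and 3 higher. They ran from *Gsx2* (-6.58), which opposes *Pax6* at that border, to *Nrg3* (2.52). Of the lower, 3 (*Gsx2*, *Gsx1* and *Dbx1*) were under 0.5 CPM in TdTomato+ cells, with the same limit.

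Genes that are expressed in area-specific patterns in postmitotic cortex went mostly the other way. Of 14 in the table, 10 were higher and 4 lower in TdTomato+ cells, with a median log2 fold change of 0.94. *Crym* rose most (3.01, s.e. 0.22, edgeR adjusted p = 2.0e-06), from 3.58±2.45 to 29.4±17.8 CPM with a wide spread between mice, followed by *Mef2c* (2.84), *Rorb* (2.52) and *Nr4a2* (2.50). *Rora* fell most (-3.48, s.e. 0.28, adjusted p = 3.2e-06). The 3 others that fell were *Efna5* (-1.38), *Cdh8* (-1.30) and *Odc1* (-0.49).

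**Figure D5:**
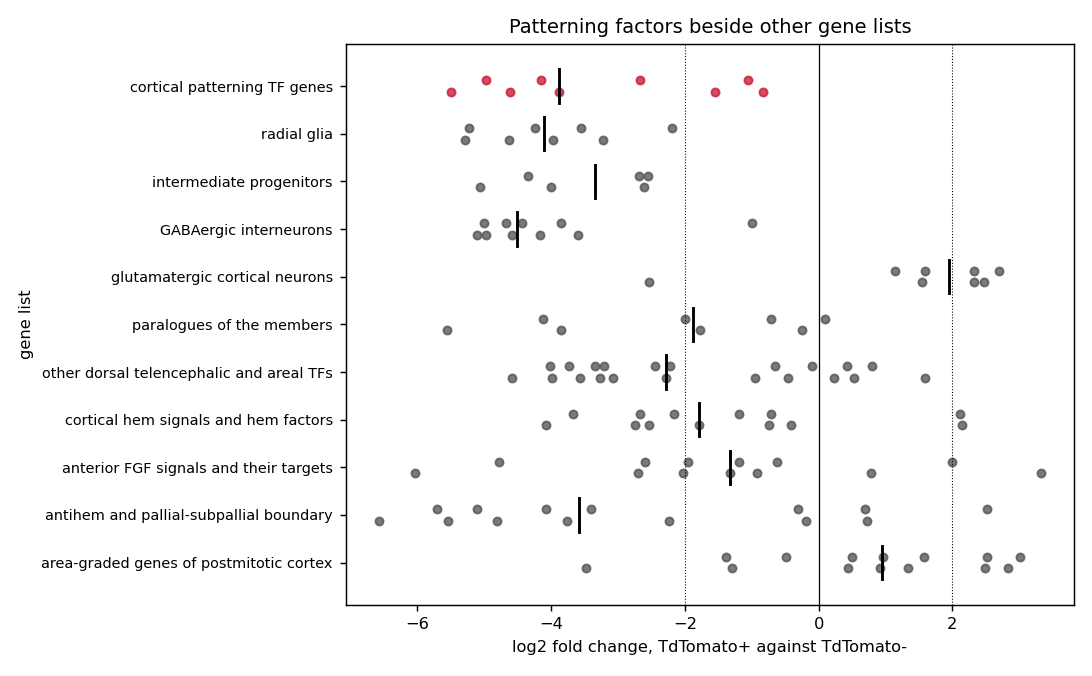
Log2 fold change of each gene in the table, by list, with a bar at the median of the list and dotted lines at -2 and 2. The 9 patterning genes (red) have a median of -3.88, the other plotted lists with a median below 0 run from -4.51 for GABAergic interneuron markers to -1.32 for the FGF list, and of those plotted only the glutamatergic neuron markers and the area-graded postmitotic genes have medians above 0, at 1.96 and 0.94.

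The genes whose levels over the 10 libraries were most like those of each patterning gene were found among 12001 genes with a mean log2 CPM of at least 1, by Pearson's r of log2 CPM. The populations form separate clusters, so that r mostly reflects the difference between them and is a description. For *Nr2e1* they were *Ube2c*, *Brca1* and *Igsf11*, for *Pax6* *Cdt1*, *Rcn1* and *Ckap2*, for *Sp8* *Palld*, *Sox2* and *Ston2*, for *Dmrta2* *Mfng* and *Gldc*, and for *Emx2* *Itgb1*, *Mtmr10* and *Tfap2c*. *Lhx2* was nearest to *Foxo4*, *Plpp3* and *Smo*, *Nr2f1* to *Gm8203*, *Nxph1* and *Eed*, *Nr2f2* to *Fam174a*, *Arl6ip1* and *Itgb3bp*, and *Emx1* to *Midn*, *Tab1* and *Cnih4*. The likeness was highest for *Nr2e1* (r = 0.9996 with *Ube2c*) and lowest for *Emx1* (r = 0.983 with *Midn*).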

How the data were processed

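RNA of sorted TdTomato+ and TdTomato- cells was sequenced, with 5 libraries of each population. The authors trimmed reads with Trim Galore (Phred score of 28), aligned them to GRCm38 with STAR 2.4.2a (1 mismatch allowed, unique hits only) and deposited raw counts per Ensembl gene. The annotation release and the counted strand are not given in the sources used here, and the methods and the sample descriptions differ in kit, sequencer and read length. Total counts were 23429034 to 27286180 per library, so a floor of 3 counts is 0.104 to 0.136 CPM (counting error only). Each of the 14300 genes had over 0.5 CPM in at least 5 libraries, which TdTomato- libraries alone could give. Symbols, positions and lengths came from GENCODE M21 (GRCm38), with 29 genes unmatched, and promoters from RefSeq (9 of 9 genes matched).

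Counts were analysed in R 4.3.3 by edgeR 4.0.16 (TMM, filterByExpr, which removed no gene, glmQLFit and glmQLFTest, mouse as a block, prior count 0.125), with Benjamini-Hochberg adjustment over 14300 genes. The s.e. is the log2 fold change over the square root of F. DEGs had an adjusted p of at most 0.05 and a log2 fold change of 2 or more in size. Log2 CPM used a prior count of 2. The pairing comes from the numbers in the sample titles and the paired comparison of the methods. Deviations from group means correlated at 0.186 to 0.316 between libraries of one number and -0.312 to 0.212 otherwise. Paralogue ratios were tested by exact sign-flip permutation over mice. Each number stands for a mouse, as the study describes the sorted animals. The procedure was tested on simulated data.

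Genes named are all 9 patterning genes, their antisense genes, paralogues, the extremes of each list and the 3 genes most alike in level. Other list genes named were picked after their values were seen. Some genes that this rule or these lists hold are not reported here. The patterning genes and lists were chosen with earlier results of these data known. Alternatives were RLE, upper-quartile and no scaling, DESeq2 1.42.0, no filter, a filter of over 1 CPM, no mouse block, robust estimation, a prior count of 2, TREAT, each mouse left out, 0.5 added to counts or summed counts in ratios, and the longest transcript as length.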

Additional observations from a re-analysis of the deposited data

How the results depend on the processing

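All 9 patterning genes stayed lower in TdTomato+ cells at an adjusted p of at most 0.05, and 6 were DEGs, under every scaling, filter, prior count and estimation setting, DESeq2, the fit without the mouse block and with each mouse left out, and TREAT also called 6. Scaling by library totals alone moved the median of all genes to -0.18 and *Emx1* to -1.01 on the log2 scale, the farthest that gene went. With each mouse left out, *Emx1* ran from -0.88 to -0.79, *Nr2f1* from -1.09 to -0.98 and *Nr2f2* from -1.74 to -1.41. DEGs of all genes numbered 1850, against 1588 with a filter of over 1 CPM, 1734 with a prior count of 2, 1350 with TREAT and 1875 with DESeq2, which changes the share that the 6 of 9 is set against. The fit without the replicate block called 1846, and changed no call of a patterning gene. Without the pairing, the ratio differences of 3.10 (*Emx1* to *Emx2*) and 0.51 (*Nr2f1* to *Nr2f2*) passed 0.05, with exact p of 0.00794 and 0.0238, which 5 pairs cannot reach by sign flips. With each mouse left out, these differences ran from 2.98 to 3.27 and from 0.37 to 0.65. With the longest transcript as length, 4 of 9 genes kept their rank by RPKM in TdTomato- and 5 of 9 in TdTomato+ cells. Depth limits *Sp8* most, with 6 to 24 counts in TdTomato+ libraries.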

Other observations

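In the 22 groups of 5 libraries examined (the 9 genes and 2 paralogue ratios in each population), no library lay apart from the other 4 by Dixon's criterion, where chance gives about 1.1.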
